A study of Mus musculus with 6 samples.

Results

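The 10 genes described here encode the enzymes that make fatty acids de novo and then lengthen and desaturate them: Acly, Acaca, Acacb, Fasn, Scd1, Scd2, Elovl5, Elovl6, Fads1 and Fads2. They were taken by gene symbol, and all 10 were found among the 48967 genes to which exonic parts were assigned, of which 30967 had a count in at least 1 library. In this pathway, ATP citrate lyase (Acly) splits cytosolic citrate to give acetyl-CoA, the acetyl-CoA carboxylases (Acaca and Acacb) turn acetyl-CoA into malonyl-CoA, and fatty acid synthase (Fasn) builds palmitate from both. Elongases of the Elovl family extend the chain at the endoplasmic reticulum, the stearoyl-CoA desaturases (Scd1 and Scd2) make monounsaturated fatty acids, and the front-end desaturases Fads1 and Fads2 act on polyunsaturated chains. The products are esterified into the phospholipids of membranes and the triacylglycerols that fill lipid droplets, and in liver and fat the genes are known targets of the transcription factors ChREBP and SREBP-1.

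RNA was measured in wild-type mouse embryos of an F1 cross, given as C57Bl/10 X CBA/H, at the 2-cell stage on day 2. Control embryos (n = 3 libraries) were grown in vitro from zygotes. Delipidated embryos (n = 3 libraries) came from zygotes that were centrifuged in cytochalasin B and then in a hyperosmotic sucrose medium with it, and whose gathered lipid droplets were aspirated through a laser opening in the zona pellucida. Both groups were cultured in KSOM medium free of fatty acids from 0.5 to 2.0 dpc. The labels describe no sham operation of the control zygotes, so the removal of droplets cannot be told apart from the centrifugation, cytochalasin B and zona opening that went with it. Each library held 3 embryos, and the zygotes of several superovulated females had been pooled before allocation, so p-values measure the spread between embryo pools of 1 collection. Counts assigned to genes were 12164963, 16165958 and 12980787 in control replicates 1 to 3 and 20059460, 16332103 and 14683741 in delipidated replicates 1 to 3. Genes with a count were 22855, 22437 and 20582 in control and 17091, 19408 and 20158 in delipidated libraries, so that fewer were found in each delipidated library than in any control library, and the library with the most counts, delipidated replicate 1, had the fewest. Counts are sums over exonic parts, the non-overlapping pieces of a gene's exons. A read across several parts was counted in each, so the sums exceed the number of reads.

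The labelled stage was checked against marker genes. All 11 oocyte and maternal transcripts had counts in each library, and their summed level was 1415, 953 and 1366 CPM (counts scaled to library size and TMM factor) in control replicates 1 to 3 and 1091, 1263 and 1590 CPM in delipidated replicates 1 to 3, with Oosp1 the most abundant. All 9 genes of 2-cell stage genome activation also had counts in each library, with sums of 536, 326 and 498 CPM in control and 488, 469 and 536 CPM in delipidated libraries and Dppa2 as the most abundant gene. Among markers of other cells, 6 of 7 adipocyte genes had any count and summed to 5.15, 5.99 and 2.20 CPM in control and 0.988, 9.77 and 2.75 CPM in delipidated libraries, led by Plin1, while Adipoq was at 0 throughout. The 7 leukocyte genes, led by Cd74, summed to 8.52, 7.14 and 7.30 CPM in control and 6.67, 3.50 and 4.31 CPM in delipidated libraries, so that the groups did not overlap. The 7 oviduct epithelium genes summed to 90.4, 249 and 130 CPM in control and 173, 204 and 113 CPM in delipidated libraries and were led by Epcam, which had 82.5 to 221 CPM.

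Of 15 cumulus and granulosa genes 13 had a count, Foxl2 and Ptx3 were at 0 in all 6 libraries, and Amhr2 was the most abundant on average. Their sums were 20.8, 28.6 and 84.3 CPM in control and 12.4, 33.5 and 18.6 CPM in delipidated libraries, and control replicate 3 stood above the rest through Cyp11a1, with 653 counts against 4 and 0 in the other control libraries and 0 in each delipidated library. The 7 stromal genes summed to 18.3, 18.7 and 28.9 CPM in control and 1.93, 3.50 and 4.09 CPM in delipidated libraries, and the groups did not overlap here either. The most abundant of them, Vim, had 152, 145 and 300 counts in control and 0 in each delipidated library. Zygotes had been freed of cumulus cells with hyaluronidase, and the source of these counts was not tested.

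The enzymes fell into tiers of RNA level. Over the 6 libraries, Acly averaged 17.2 ± 4.02 CPM per kilobase of exonic parts (SD, n = 6), Scd1 14.6 ± 4.28, Elovl6 14.3 ± 3.68 and Fasn 5.70 ± 1.26. Acly, Scd1 and Elovl6 lay at the 80.5th, 77.7th and 77.3rd percentile of level per kilobase among the 16020 genes that passed the filter on low counts. Acly was above Scd1 in 4 of 6 libraries and Scd1 above Elovl6 in 4 of 6, so these 3 did not differ beyond their spread, whereas Elovl6 was above Fasn in 6 of 6.

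Below them came Acacb at 3.86 ± 1.68 CPM per kilobase (SD, n = 6), Acaca at 2.16 ± 0.509, Fads2 at 1.71 ± 2.04, Elovl5 at 1.69 ± 0.741, Scd2 at 1.24 ± 0.873 and Fads1 at 0.403 ± 0.669. Fasn was above Acacb in 5 of 6 libraries and Acacb above Acaca in 5 of 6. The order of Acacb and Acaca depends on the lengths used, since their mean CPM was 37.2 and 36.8. Acaca, Fads2 and Elovl5 each exceeded the next gene in only 3 or 4 of 6 libraries, so the order of neighbours from Acaca to Scd2 was not resolved, though Acaca was above Scd2 in all 6. Scd2 was above Fads1 in all 6. The mean of Fads2 fell to 0.980 without delipidated replicate 1 and that of Fads1 to 0.136 without control replicate 3. Together, Acly, Scd1 and Elovl6 held a mean of 27.7%, 22.9% and 22.7% of the summed level per kilobase of the 10 enzymes.

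A read that crosses several short exons is counted in each of them, so levels were also taken from long parts alone; the effect of such reads on the levels was not tested. With exonic parts of at least 300 bases alone, Elovl6 led at 12.0 ± 3.14 CPM per kilobase (SD, n = 6), followed by Scd1 at 10.7 ± 3.10 and Acly at 8.13 ± 3.87. On that scale Fasn was at 1.78 ± 0.457 and Acaca at 0.534 ± 0.0780, below Elovl5 at 0.894 ± 0.467 and Scd2 at 0.891 ± 0.625. The upper set of Acly, Scd1 and Elovl6 above Fasn held on both scales, and their order among themselves did not.

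**Figure D1:**
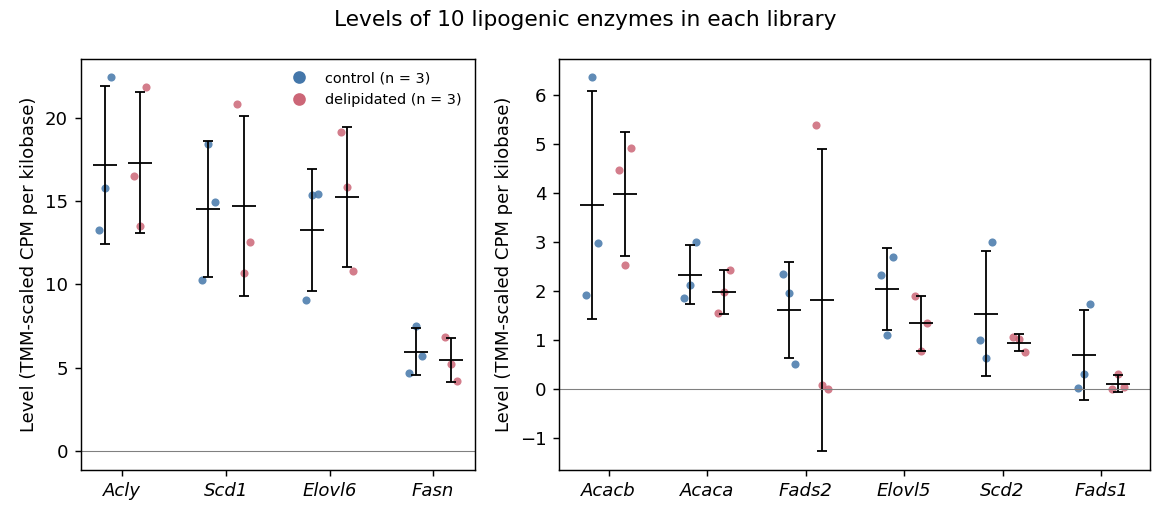
Level of each enzyme in TMM-scaled CPM per kilobase of exonic parts (vertical axes, linear and different in the 2 panels), with the genes on the horizontal axes. Points are libraries, black marks are group means and bars are SD over 3 libraries; the points of the groups overlap for each of the 10 enzymes, and the highest Fads2 value, 5.37, is delipidated replicate 1.

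Delipidated embryos were compared with control embryos to see whether removal of lipid droplets was followed by a change in RNA for these enzymes. In the embryos sampled here none of them passed the test. The summed level of the 10 enzymes was 46.7, 69.5 and 72.3 CPM per kilobase in control replicates 1 to 3 and 77.6, 52.0 and 58.9 in delipidated replicates 1 to 3, with means of 62.8 ± 14.1 and 62.8 ± 13.3 (SD, n = 3). All 10 enzymes passed the filter, and edgeR's quasi-likelihood test called 0 of 10 at a Benjamini-Hochberg adjusted p under 0.05 with a fold change over 2. Across all 16020 genes tested it also called 0, a share of 0%, and a gene that is not called may still differ. At an unadjusted p under 0.05, 0 of 10 enzymes stood against 463 of all genes tested, or 2.89%. The groups overlapped for each of the 10 enzymes. They did not overlap for 8.86% of all genes tested, a share at which 0 of 10 does not set the enzymes apart. DESeq2's Wald test without a filter called 49 of 30967 genes, 0.158%, and 0 of the 10 enzymes, and limma-voom called 0 genes. The fitted log2 fold change was positive for 5 enzymes and negative for 5, with a median of -0.06 against 0.00 over all genes tested.

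**Figure D2:**
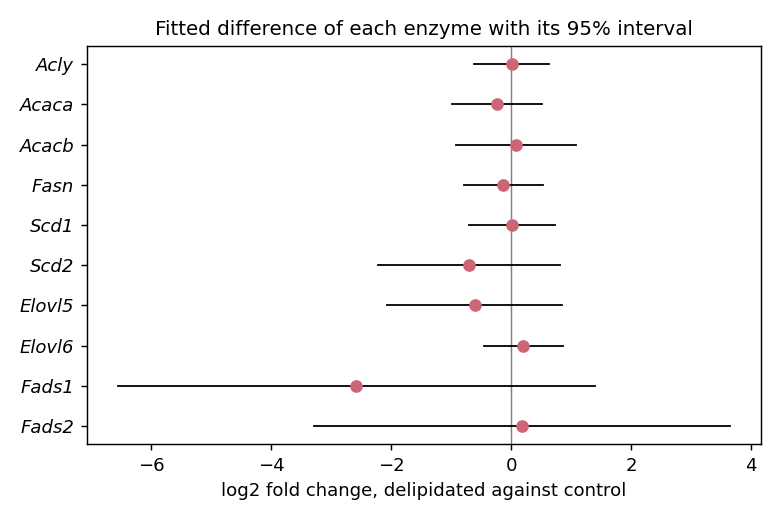
Fitted log2 fold change of delipidated against control embryos (horizontal axis) for each enzyme (vertical axis), from edgeR's quasi-likelihood fit with 3 libraries in each group; lines are 95% intervals. Each interval includes 0, with those of Acly and Fads1 running from -0.61 to 0.64 and from -6.56 to 1.40.

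Acly, the source of cytosolic acetyl-CoA, had 828, 1379 and 1557 counts in control replicates 1 to 3 and 1765, 1160 and 1634 in delipidated replicates 1 to 3. It is listed as ENSMUSG00000020917 on the reverse strand of chromosome 11 of GRCm38, from 100476353 to 100528000. Its level was 69.9, 83.4 and 118 CPM in control and 87.1, 71.3 and 115 CPM in delipidated libraries, with a high library in either group. The fitted log2 fold change came to 0.01 (SE 0.29; adjusted p = 1.00 by edgeR's quasi-likelihood test). The 95% interval of the fold ran from 0.653 to 1.55, so a 2-fold change in either direction lay outside it.

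The cytosolic carboxylase Acaca, which supplies malonyl-CoA to fatty acid synthase, had 31.8, 36.3 and 51.3 CPM in control and 26.3, 33.7 and 41.6 CPM in delipidated libraries. The ranges overlapped. The log2 fold change was -0.23 (SE 0.34, edgeR adjusted p = 1.00, 95% interval of the fold 0.506 to 1.43), and it was -0.011 without control replicate 3. Acacb encodes the carboxylase of the outer mitochondrial membrane, whose malonyl-CoA restrains the entry of fatty acids into mitochondria. It had 18.4, 61.2 and 28.7 CPM in control and 43.0, 24.4 and 47.4 CPM in delipidated libraries. Acacb varied 3.33-fold between its lowest and highest library, both of them control libraries, against 1.95-fold for Acaca. Its log2 fold change was 0.08 (SE 0.46), and the interval of the fold, 0.530 to 2.11, includes a doubling.

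Fasn, the synthase itself, had 51.5, 81.9 and 62.3 CPM in control and 75.1, 57.4 and 46.2 CPM in delipidated libraries. Its log2 fold change was -0.13 (SE 0.30; edgeR adjusted p = 1.00; interval of the fold 0.579 to 1.44). The coefficient of variation over the 6 libraries was 22.1%, close to the 23.3% of Acly and the 23.6% of Acaca.

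Among the desaturases of saturated chains, Scd1 was the abundant form. It had 49.6, 89.0 and 72.1 CPM in control and 101, 51.7 and 60.5 CPM in delipidated libraries, where delipidated replicate 1 was the highest of all 6 and delipidated replicate 2 among the lowest. The log2 fold change was 0.01 (SE 0.33; interval of the fold 0.612 to 1.67). Scd2, the form best known from brain, had 5.40, 3.39 and 16.1 CPM in control and 5.73, 5.53 and 4.02 CPM in delipidated libraries. Control replicate 3 alone stood apart, and the log2 fold change of -0.70 (SE 0.69) became 0.21 without it. All 7 exonic parts of Scd2 are listed under an identifier joined with an overlapping gene and were assigned to Scd2 by position.

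Elovl6 extends saturated and monounsaturated chains after palmitate. It had 58.1, 98.7 and 99.0 CPM in control and 123, 102 and 69.4 CPM in delipidated libraries, with overlapping ranges and a low library in each group. The log2 fold change was 0.20 (SE 0.30; edgeR adjusted p = 1.00; interval of the fold 0.729 to 1.81). Parts that lie opposite the gene Gm35986 on the other strand hold 2.91% of its counts. Elovl5, which extends polyunsaturated chains, had 8.18, 3.87 and 9.50 CPM in control and 6.67, 2.76 and 4.73 CPM in delipidated libraries. Its log2 fold change of -0.60 (SE 0.67) was smaller than its standard error, and the groups overlapped.

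The front-end desaturases had few or no counts in some libraries. Fads1 had 1, 18 and 79 counts in control replicates 1 to 3 and 0, 17 and 2 in delipidated replicates 1 to 3, and most of its signal came from control replicate 3. With 3 counts allowed for a count of 0, the level of delipidated replicate 1 could be up to 0.148 CPM. A read across several parts is counted in each, so reads missed by counting error could amount to more than this. Its unadjusted p of 0.183 by edgeR's quasi-likelihood test was the smallest of the 10 enzymes and 1969th of all genes tested, with a log2 fold change of -2.58 (SE 1.82) and an adjusted p of 1.00. Without control replicate 3 the log2 fold change was -0.58, and without delipidated replicate 2 it was -5.01.

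Fads2 had 42, 49 and 10 counts in control and 164, 2 and 0 in delipidated libraries. Delipidated replicate 1 was the highest and delipidated replicate 3, with 0 counts, the lowest. Allowing 3 counts there gives up to 0.212 CPM, and missed reads that cross several parts could amount to more. The log2 fold change of 0.18 (SE 1.58) became -5.08 without delipidated replicate 1 and -0.24 without control replicate 3, and limma-voom gave -2.21 with all 6 libraries, so its sign was not settled. In delipidated replicate 1, neighbouring exons of Fads2 had 50, 50 and 57 counts from the first exon on, the next had 7, and the 8 parts that follow had 0. The parts of Fads2 cover 1508 bases and end at 10064164 on chromosome 19, short of the annotated gene end at 10062765, so its level is that of the listed parts.

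Shares within pairs of related enzymes do not depend on library scaling. Acaca made up 49.4%, 25.1% and 50.3% of the carboxylase level per kilobase in control replicates 1 to 3 and 25.7%, 43.8% and 33.1% in delipidated replicates 1 to 3. Acacb thus formed the larger share per kilobase in 5 of 6 libraries, and the difference of -7.39 percentage points (-15.6 to -3.05 when 1 library was left out) had an exact two-sided permutation p of 0.6. That order depends on the lengths, as Acaca is given 17074 bases, with parts of 3966 and 2981 bases each held by 1 annotated transcript. In CPM, Acaca was above Acacb in control replicates 1 and 3 and delipidated replicate 2, and the means over 6 libraries were 36.8 and 37.2. Scd1 made up 91.1%, 96.7% and 83.3% of the stearoyl-CoA desaturase level in control and 95.1%, 91.3% and 94.4% in delipidated libraries. Its share was 3.22 percentage points higher in delipidated embryos (exact two-sided permutation p = 0.6), and the difference was -0.31 points without control replicate 3. Scd1 therefore dominated the pair in each library of either group.

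Elovl6 made up 79.6%, 93.3% and 85.1% of the Elovl5 and Elovl6 level in control and 91.0%, 95.3% and 88.9% in delipidated libraries, a difference of 5.75 percentage points with an exact two-sided permutation p of 0.3. Fads1 made up 1.03%, 13.8% and 77.5% of the Fads1 and Fads2 level in control and 0%, 78.8% and 100% in delipidated libraries (exact two-sided permutation p = 0.5), values that rest on few counts. Adjusted over the 4 pairs, each of these p-values was 0.6. With 3 libraries against 3 the exact test cannot give less than 0.1.

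**Figure D3:**
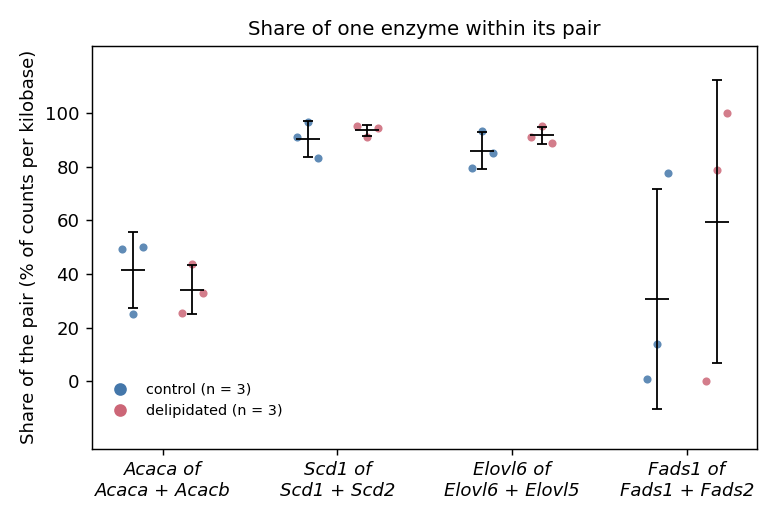
Share of one enzyme in the summed level per kilobase of a pair, in percent (vertical axis), for 4 pairs (horizontal axis). Points are libraries, black marks are group means and bars are SD over 3 libraries, which can extend past the range of a share; Scd1 lies between 83.3% and 96.7%, while Fads1 ranges from 0% to 100%.

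The exonic parts gave a view of transcript structure. Of 293 parts in the 10 genes, 254 had at least 10 counts over the 6 libraries, and the groups did not overlap in 27 of these, 8 higher and 19 lower in delipidated embryos. That is 10.6% of the parts, against 7.82% of all 216604 parts with as many counts, 7223 higher and 9720 lower. Neighbouring parts share reads and are not independent. In Fasn 2 of 53 parts were higher and 8 lower, in Acly 3 of 36 and 5, in Acaca 1 of 60 and 5, and in Acacb 2 of 55 and 1; the other 6 genes had 0.

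The parts named next were picked after their values were seen. In Acly both parts of the annotated first exon were among those lower in delipidated embryos by CPM: the part from 100527870 to 100528000 had 11, 21 and 15 counts (0.928, 1.27 and 1.14 CPM) in control and 14, 0 and 13 counts (0.691, 0 and 0.918 CPM) in delipidated libraries, and that from 100527795 to 100527869 had 19, 26 and 19 against 14, 4 and 13. Further along, the exon from 100514276 to 100514337 had 19, 25 and 20 counts in control and 93, 70 and 60 in delipidated libraries. Parts of Acly thus lay on both sides, while the log2 fold change of the gene's sum was 0.01.

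Both carboxylase genes have annotated alternative starts, and some of these had no counts at this depth. In Acaca, the first exons that begin at 84173122 and 84179831 on chromosome 11 had 0 counts in all 6 libraries. The first exon farther upstream was covered in some, with 3, 9 and 0 counts in control and 0, 23 and 0 in delipidated libraries from 84129700 to 84130130, and 18, 4 and 0 against 67, 28 and 2 from 84130131 to 84133111. The exon from 84195438 to 84195687, which is a first exon in 1 annotated transcript and an inner exon in 6, had 2, 23 and 14 counts in control and 20, 12 and 9 in delipidated libraries. In Acacb, the first exons from 114146535 to 114146825 and from 114175906 to 114176190 on chromosome 5 had 0 counts in all 6 libraries and that from 114199779 to 114200086 had 0, 21 and 0 in control and 14, 5 and 1 in delipidated libraries, while the exon from 114165518 to 114166140 had 1, 39 and 29 counts in control and 29, 29 and 39 in delipidated libraries. A count of 0 over a single exonic part allows up to 3 counts in a library by counting error alone.

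Just before that covered Acacb exon lie 9 bases, from 114165509 to 114165517, that belong to it in another annotated transcript. They had 0 counts in each control library and 14, 17 and 3 counts in delipidated replicates 1 to 3, although the first exon of the transcript that holds them had none. RefSeq places the start of Acacb directly after these bases. The 250 bases before that start, chr5:114165268-114165517 on the forward strand of GRCm38.p6, are shown because they hold those 9 bases; capitals mark a CCAAT match 87 bases before the start and, at the 3′ end, the 9 bases with counts in delipidated libraries.
Acacb: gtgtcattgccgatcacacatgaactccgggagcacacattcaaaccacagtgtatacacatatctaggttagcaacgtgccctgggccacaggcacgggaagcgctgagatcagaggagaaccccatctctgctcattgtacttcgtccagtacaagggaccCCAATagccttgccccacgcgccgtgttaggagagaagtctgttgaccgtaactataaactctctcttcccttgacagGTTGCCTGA

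RefSeq promoters were found for 7 of the 10 enzymes, Scd1, Scd2 and Fads1 being the others. The 250 bases before each start were searched on both strands. The E-box CACGTG was in 1 of 7, that of Elovl5, 161 bases before the start, and in 6.02% of all 32851 promoters. The core TCACNCCAC of the sterol element was in 0 of 7 and in 1.05% of all. CCAAT was in 3 of 7, with 3 matches in Fasn, 2 in Elovl5 and 1 in Acacb, and in 33.8% of all. The Fasn matches at 62 and 59 bases before the start overlap on opposite strands within the stretch CCAATTGG. The GC box GGGCGG was in 2 of 7, with 4 matches in Acly and 1 in Fads2, and in 32.7% of all. These matches describe the letters of each window. The windows of Acaca and Acacb end at exons that are inner exons in at least 1 annotated transcript, where most of the window is intron.

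Short coding exons that transcripts can hold or skip occur in Acly and Acaca, and are shown because counts over them differ between libraries. The 30-base exon of Acly, chr11:100503160-100503189 on the reverse strand, keeps the reading frame with 10 codons and is held by 2 annotated transcripts and skipped by 2. It had 7, 7 and 32 counts in control and 23, 38 and 44 in delipidated libraries, and the exon before it had 43, 50 and 51 in control and 57, 56 and 87 in delipidated libraries. The ratio of the short exon to the exon before it was 16.3%, 14.0% and 62.7% in control and 40.4%, 67.9% and 50.6% in delipidated libraries, with an exact two-sided permutation p of 0.3. Control replicate 3 lay with the delipidated libraries, so the groups overlapped. The 24-base exon of Acaca, chr11:84290288-84290311 on the forward strand, adds 8 codons and is held by 2 annotated transcripts and skipped by 1. It had 6 counts in control replicate 1 and 0 in the other 5 libraries. The exon before it had 6, 24 and 10 counts in control and 35, 0 and 0 in delipidated libraries. These are summed over 2 adjoining parts, which can share reads. The exon after it had 10, 17 and 48 counts in control and 0, 0 and 6 in delipidated libraries. The short exon thus lacked counts between covered exons in control replicates 2 and 3. In delipidated replicate 1 the exon after it had 0 counts as well, so that library does not bear on skipping. Both are given 5′ to 3′ from the GENCODE transcripts of GRCm38.
Acly, 30 bases: ATTCAGTCCCAAGTCCAAGATCCCTGCAAG
Acaca, 24 bases: AGGGAACATCCCCACGCTAAACAG

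The last exon of Elovl6 has annotated transcript ends at 129633437, 129634952 and 129634971 and a farther one at 129638495 on chromosome 3. The exon up to 129634971 had 461, 1109 and 854 counts in control and 1309, 1117 and 613 in delipidated libraries, and the 3524 bases beyond had 99, 324 and 200 in control and 465, 339 and 134 in delipidated libraries. Per kilobase, the distal stretch had 13.4% ± 2.18 of the level before it in control and 15.9% ± 3.74 in delipidated embryos (SD, n = 3; exact two-sided permutation p = 0.4). The ratio lay between 11.7% and 19.3% in the 6 libraries, so most Elovl6 counts of the last exon lay up to 129634971.

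Other genes of lipogenesis were described by lists. Of 11 genes that supply or help fatty acid synthesis, 10 were tested, 0 were called higher and 0 lower, and their median log2 fold change was -0.03. G6pdx, the entry enzyme of the pentose phosphate pathway that yields NADPH, was the most abundant per kilobase, at 72.9 ± 29.6 CPM per kilobase in control and 80.5 ± 51.4 in delipidated embryos (SD, n = 3). Its log2 fold change of 0.14 (SE 0.41) became -0.52 without delipidated replicate 3. Aacs, the cytosolic acetoacetyl-CoA synthetase, had 85.8, 133 and 171 CPM in control and 102, 113 and 55.8 CPM in delipidated libraries (log2 fold change -0.53, SE 0.33, edgeR adjusted p = 1.00). Idh1, the cytosolic NADP-dependent isocitrate dehydrogenase, had 5.91, 2.18 and 31.2 CPM in control and 3.36, 5.53 and 9.60 CPM in delipidated libraries, with control replicate 3 again the highest; the log2 fold change of -1.09 (SE 0.85) became 0.61 without that library.

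Of 11 further genes of the elongation cycle, 8 were tested and 0 were called in either direction, with a median log2 fold change of -0.06. Elovl7, an elongase of saturated very long chains, had 8.35, 4.66 and 10.6 CPM in control and 22.9, 15.5 and 10.9 CPM in delipidated libraries, so each delipidated value lay above each control value. Its log2 fold change was 1.06 (SE 0.52; unadjusted p = 0.0642 and adjusted p = 1.00 by edgeR's quasi-likelihood test), and 0.28 with its longest exonic part alone. Hacd2, a dehydratase of the cycle, had 2.36, 9.19 and 18.8 CPM in control and 0.988, 4.67 and 3.81 CPM in delipidated libraries, which overlapped (log2 fold change -1.68, SE 0.84; unadjusted p = 0.0702, adjusted p = 1.00). Hsd17b12, the ketoacyl-CoA reductase, was the most abundant of the list at 24.3 ± 5.69 CPM per kilobase in control and 20.5 ± 2.57 in delipidated embryos (SD, n = 3).

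Of 9 other desaturases and electron carriers, 7 were tested and 0 were called in either direction, with a median of -0.13. Scd3, a further stearoyl-CoA desaturase, had 21.0, 13.5 and 15.7 CPM in control and 19.7, 22.0 and 34.5 CPM in delipidated libraries (log2 fold change 0.60, SE 0.40). Cyb5r3, the reductase that passes electrons to cytochrome b5, had a log2 fold change of 0.39 (SE 0.38), and Degs1, the dihydroceramide desaturase with the highest level per kilobase of the list, one of 0.06 (SE 0.31). Of 8 genes of mitochondrial fatty acid synthesis found, 5 were tested and 0 were called, with a median of -0.29. Its named genes were Ndufab1, the mitochondrial acyl carrier protein, at -0.43 (SE 0.32), and Lias, the lipoic acid synthase, at -0.43 (SE 0.49), which became -0.090 without control replicate 2.

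Of 13 factors and kinases that act on the lipogenic enzymes, all 13 were tested and 0 were called, with a median of 0.08. Mlxipl, which encodes ChREBP, was at 9.66 ± 1.75 CPM per kilobase in control and 24.5 ± 9.84 in delipidated embryos (SD, n = 3), a log2 fold change of 1.34 (SE 0.31; unadjusted p = 0.00114 and adjusted p = 1.00 by edgeR's quasi-likelihood test). DESeq2's Wald test without a filter gave Mlxipl an adjusted p of 0.0285 and edgeR without a filter 0.00426, both past the threshold, and over all alternatives the adjusted p ran from 0.00426 to 1.00 and the log2 fold change from 0.98, without delipidated replicate 2, to 2.98, with the longest exonic part. Its groups did not overlap, which held for 8.86% of all genes tested. Those of each of the 10 enzymes overlapped. Usf1, a factor that binds E-boxes, had 92.0, 174 and 160 CPM in control and 90.7, 71.1 and 93.4 CPM in delipidated libraries. Its log2 fold change was -0.74 (SE 0.28; unadjusted p = 0.0215 and adjusted p = 1.00 by edgeR's quasi-likelihood test), and control replicate 1 fell within the delipidated range. The groups did not overlap in 3 of the 13 genes, against 8.86% of all genes tested, Mlxipl and Prkaa2 higher and Srebf1 lower; Prkaa2 and Srebf1 were picked after their values were seen. Srebf1, which encodes SREBP-1, had 6.83, 10.2 and 7.30 CPM in control and 3.51, 3.50 and 1.76 CPM in delipidated libraries (log2 fold change -1.47, SE 0.66; unadjusted p = 0.0465, adjusted p = 1.00), and Prkaa2, a subunit of AMP-activated kinase, 2.95, 4.54 and 6.005 CPM against 6.02, 7.99 and 9.60 CPM (log2 fold change 0.80, SE 0.62).

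The genes most like an enzyme in pattern were taken by Pearson's r of log2 CPM over the 6 libraries, as a description over few points. Among 8126 genes with a mean of at least 10 CPM, those most like Acly were Kdm2b (r = 0.968), Faim (r = 0.967) and Klhdc3 (r = 0.961). Klhdc3 had 35.4, 52.2 and 76.2 CPM in control and 51.0, 46.5 and 76.0 CPM in delipidated libraries, with replicate 3 of each group high, as in Acly. Those most like Fads1 were Gpx1 (r = 0.996), Zc3hc1 (r = 0.991) and Rrbp1 (r = 0.990). Gpx1 had 38.0, 71.7 and 131 CPM in control and 31.2, 65.2 and 37.6 CPM in delipidated libraries, so control replicate 3 was again the highest. Among the enzymes themselves, r with Acly ranged from -0.37 for Fads2 to 0.72 for Acaca, and was -0.14 for Fasn, 0.30 for Scd1 and 0.08 for Elovl6.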

How the data were processed

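The authors' deposited files hold raw counts of uniquely mapped reads per exonic part, with no normalization; the submitters' processing notes name bcl2fastq 2.20, Trimmomatic 0.36, STAR 2.5.2b, featureCounts and the build mm10. Libraries came from a stranded total RNA kit with depletion of ribosomal RNA, read as pairs of 150 bases. Parts were summed per gene identifier. Of 33309 parts under joined identifiers, 27968 overlapped exons of 1 member gene in GENCODE M21 and were assigned to it; the others, 2.49% to 2.57% of a library's counts, were left out. Genes copied elsewhere or overlapping on the other strand are uncertain.

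Groups were compared over all genes with edgeR 4.0.16 in R 4.3.3 (quasi-likelihood test after TMM scaling, no covariates; filterByExpr defaults, which are minimum counts of 10 in a library and 15 in total). A call needed an adjusted p (Benjamini-Hochberg) under 0.05 and an absolute log2 fold change above 1. Shares were compared by exact two-sided permutation with scipy 1.17.1. Intervals are at 95%, and a count of 0 was taken to allow 3 counts. Alternatives were DESeq2 1.42.0, its size factors, limma-voom (limma 3.58.1), other filters, other ways to use parts, a replicate block and each library left out. The test was checked on simulated counts, in which it missed many of the changed genes.

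The members and lists were chosen with earlier results of these data known. Named genes are the 10 enzymes and, from each list, its called genes or else the 2 with the smallest unadjusted p and that with the highest level per kilobase, besides the 3 most alike in pattern to the enzyme of highest level and to that of smallest p; Srebf1 and Prkaa2 were added after their values were seen. Of 126 list genes 125 were matched by symbol.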

Additional observations from a re-analysis of the deposited data

How the results depend on the processing

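The count of lipogenic enzymes called was 0 under each alternative, and their log2 fold changes kept their sign in 120 of 142 values computed under alternatives. DESeq2 without a filter called 9 genes higher and 40 lower, and edgeR without a filter 5 higher and 25 lower; the other alternatives called 0. Replicate numbers do not pair the samples (correlations of same-numbered libraries -0.0836, 0.0698 and 0.0428); with the replicate block, 0 genes were called and the log2 fold change was -0.013 for Scd1 and -2.83 for Fads2. The median log2 fold change of the enzymes was -0.45 with the longest exonic part, over the 7 enzymes that could be fitted, and between -0.33 and 0.028 in the fits that leave out 1 library.

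Signs turned in some fits without 1 library, where the log2 fold change ranged from -0.19 to 0.25 for Acly, -0.22 to 0.70 for Acacb, -0.33 to 0.069 for Fasn, -0.32 to 0.22 for Scd1, -1.07 to 0.21 for Scd2, -0.0019 to 0.40 for Elovl6, -5.08 to 0.76 for Fads2, -1.59 to 0.61 for Idh1, -0.52 to 0.49 for G6pdx and -0.10 to 0.29 for Degs1. With the sign kept, it ranged from -0.41 to -0.011 for Acaca, -0.94 to -0.33 for Elovl5, -5.01 to -0.58 for Fads1, -0.75 to -0.090 for Lias, -0.75 to -0.28 for Aacs, -2.14 to -0.88 for Hacd2 and -0.42 to -0.13 for Hsd17b12. The sign was also kept for Scd3 (0.32 to 0.81), Cyb5r3 (0.22 to 0.50) and Ndufab1 (-0.65 to -0.27). limma-voom gave -0.0029 for Scd1 and -2.21 for Fads2. The longest part gave -0.72 for Acacb, 0.39 for Hsd17b12 and -0.18 for Degs1, and without a turn of sign -0.95 for Acaca, -1.40 for Aacs, -1.98 for Idh1 and 2.98 for Mlxipl. With the part of most counts, chosen after seeing the data, Scd1 was at -0.014, Elovl6 at -0.063, Prkaa2 at -0.041, Hsd17b12 at 0.045, Lias at 0.17 and Elovl7 at 0.24, against 0.28 with its longest part and 1.06 with all parts. Cyb5r3 was at 0.83 with the part of most counts, against 0.39 with all parts. When 1 library was left out, shares within pairs differed by -0.31 to 6.38 percentage points for Scd1, -15.6 to -3.05 for Acaca, 2.53 to 9.41 for Elovl6 and 8.60 to 58.6 for Fads1. Of the other named genes, 207 of 218 values kept their sign and their side of the threshold.

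Levels per kilobase with the longest part were 11.1 for Acly, 0.280 for Acaca, 0.770 for Acacb, 0.482 for Fasn, 8.17 for Scd1 and 4.56 for Elovl6. They were 1.09 for Elovl5, 0.884 for Scd2, 1.87 for Fads2 and 0.0684 for Fads1, so Fasn lay below Elovl5, Scd2 and Fads2. With parts of at least 300 bases they were 8.13 for Acly, 0.534 for Acaca, 1.43 for Acacb, 1.78 for Fasn and 0.894 for Elovl5. The longest part of Acaca is an exon of 1 annotated transcript. Some values could not be computed where a gene lost its parts or its filter, such as Scd2 and Srebf1 without joined parts. The cause was not tested for any of these shifts.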
